A study of Mus musculus with 4 samples.

Results

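The genes described here are the 45 that build, start and supply the DNA replication machine, from origin recognition to the making of deoxynucleotides. They were chosen by gene symbol, and all 45 were found among the 22488 genes listed for each library. RNA was sequenced from vascular smooth muscle cells, which form the contractile middle layer of vessel walls, grown from C57BL/6 mice and used at passage 4 to 10. The cells had been given either circEsyt2 siRNA, which targets a circular RNA that shares its name with the Esyt2 gene, or a scramble siRNA with no intended target, and were taken 48 hours later. Gene-level values cannot separate that circle from the linear Esyt2 RNA, so the knockdown itself was not analysed here. Each treatment has 2 libraries, and no untransfected cells were analysed here. Separate cultures are not stated in the labels. The p-values therefore reflect how far these 4 samples spread, and that spread may be technical.

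A chromosome is copied from many origins. In G1 the origin recognition complex, with Cdc6 and Cdt1, loads the MCM2-7 helicase onto DNA, which is called licensing. At the start of S phase Cdc45 and the GINS complex switch the helicase on, and the polymerases follow it with the sliding clamp PCNA, its RFC loader and the single-strand binding protein RPA. Ribonucleotide reductase and the thymidylate enzymes make the building blocks. Many of these genes are known targets of E2F transcription factors, so their transcripts are widely used as signs of cells entering S phase. Smooth muscle cells of a healthy vessel seldom divide, and they divide readily in culture. In bulk RNA, fewer cycling cells and less RNA per cycling cell cannot be told apart.

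Of the 45 genes 3 passed the test, 2 of nucleotide supply and 1 single-strand binding subunit, and Fen1 could not be tested. Rrm2 and Rrm1, the subunits of ribonucleotide reductase, and Rpa1, the large subunit of RPA, fell with circEsyt2 siRNA. Rfc5, of the clamp loader, did not pass with a log2 fold change of −0.78, farther from 0 than the −0.64 of Rrm1. Whether the change differs between roles was not tested. The test was limma on log2(FPKM + 1) over the 11290 genes with a mean of at least 1 FPKM, with a threshold of 0.05 on the Benjamini-Hochberg adjusted p. FPKM is the number of fragments scaled to gene length and to the size of the library. Of the 44 replication genes tested, 3 were lower (6.82%) and 0 higher, while over all genes tested 7.26% were lower and 5.47% higher. The share of replication genes called lower was thus close to that of all genes. Fold changes below 0, called or not, were found in 32 of the 44 (72.7%), against 49.8% of all genes tested. At an unadjusted p under 0.05 limma had 5 of the 44 lower and 0 higher, against 30.1% of all genes tested in either direction. Limma's voom on recovered read numbers also called 3 lower and 0 higher, where 10.3% and 7.98% of all genes were called.

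The 3 genes that fell and Mcm6, the MCM2-7 gene with the fold change farthest from 0, are shown by their promoters, 250 bases before to 50 after the start that RefSeq gives. The sequences are RefSeq's on GRCm38.p6, and capitals mark E2F-type letters (8 bases) and CCAAT (5 bases) on either strand, CCAAT on the minus strand being written ATTGG.
Rrm2, chr12:24708004-24708303, plus strand: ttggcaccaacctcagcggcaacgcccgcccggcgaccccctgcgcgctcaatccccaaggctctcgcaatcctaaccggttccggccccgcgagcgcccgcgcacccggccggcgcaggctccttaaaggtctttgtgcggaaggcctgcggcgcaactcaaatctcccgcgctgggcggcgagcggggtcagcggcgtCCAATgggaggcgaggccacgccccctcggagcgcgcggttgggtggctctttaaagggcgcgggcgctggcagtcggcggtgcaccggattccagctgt
Rrm1, chr7:102441445-102441744, plus strand: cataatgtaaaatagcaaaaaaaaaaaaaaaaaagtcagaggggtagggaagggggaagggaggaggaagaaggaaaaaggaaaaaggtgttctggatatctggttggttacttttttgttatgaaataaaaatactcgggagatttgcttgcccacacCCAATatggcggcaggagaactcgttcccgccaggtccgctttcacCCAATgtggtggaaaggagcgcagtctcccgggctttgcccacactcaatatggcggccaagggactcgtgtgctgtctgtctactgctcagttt
Rpa1, chr11:75348334-75348633, minus strand: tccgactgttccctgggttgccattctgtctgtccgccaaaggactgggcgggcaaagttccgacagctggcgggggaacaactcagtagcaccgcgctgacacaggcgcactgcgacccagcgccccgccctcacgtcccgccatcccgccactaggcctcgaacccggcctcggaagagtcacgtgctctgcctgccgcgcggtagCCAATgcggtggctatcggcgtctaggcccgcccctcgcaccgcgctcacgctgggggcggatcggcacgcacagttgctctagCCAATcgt
Mcm6, chr1:128359656-128359955, minus strand: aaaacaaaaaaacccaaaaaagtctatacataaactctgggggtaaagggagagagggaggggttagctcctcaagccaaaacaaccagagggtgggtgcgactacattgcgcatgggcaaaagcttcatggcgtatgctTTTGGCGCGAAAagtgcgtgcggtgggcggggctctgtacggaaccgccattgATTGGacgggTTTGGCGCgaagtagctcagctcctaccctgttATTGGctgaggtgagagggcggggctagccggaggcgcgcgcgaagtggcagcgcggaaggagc
The gene spans printed further on are from GENCODE M21, whose starts differ from those of RefSeq, and the whole Rpa1 window lies outside its M21 span. The E2F-type spellings searched were TTTCCCGC, TTTCGCGC, TTTGCCGC and TTTGGCGC, overlapping matches included. No match stands in the Rrm2, Rrm1 or Rpa1 window, which says only that these letters are not there. The Mcm6 window has 3, of which the first 2 overlap. No other window of the replication genes has as many, and that of Mcm2 has none. CCAAT stands in all 4 windows, once in Rrm2 and at 2 places in each of the others.

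Promoter windows were found for 37 of the 45 genes, 45 windows in all, and not for Gins1, Gins2, Gins4, Gmnn, Mcm4, Pole, Prim2 and Rfc2. An E2F-type match was present in 15 of the 37 genes (40.5%), against 704 of all 27025 genes with a window (2.60%). Some related lists, described further on, were near the 45 genes. The share was 34.8% for E2F, RB and G1/S regulators, 33.3% for chromatin assembly and 25.9% for further replication factors. It was 4.0% for mitotic genes and 0 for further deoxynucleotide enzymes, checkpoint genes and translesion and repair polymerases. All 15 were among the 33 matched genes that were tested and did not pass. Only 3 genes with a window passed, too few to compare the shares. CCAAT was present in 23 of the 37 (62.2%), against 41.1% of all genes. It was present in 83.3% of chromatin assembly genes and 76.0% of mitotic genes, and in 28.6% to 52.2% of the other related lists. Among the groups, both matched licensing loaders and 4 of 5 MCM2-7 genes had E2F-type letters, but none of the 4 nucleotide supply genes did. Polymerases and primase had 4 of 7, origin recognition 2 of 6, lagging-strand joining 1 of 2 and helicase activation 1 of 3. The clamp and its loader had 1 of 5 and single-strand binding 0 of 3. Only the 4 exact spellings were counted. A match of letters is a description and not a binding site.

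**Figure D1:**
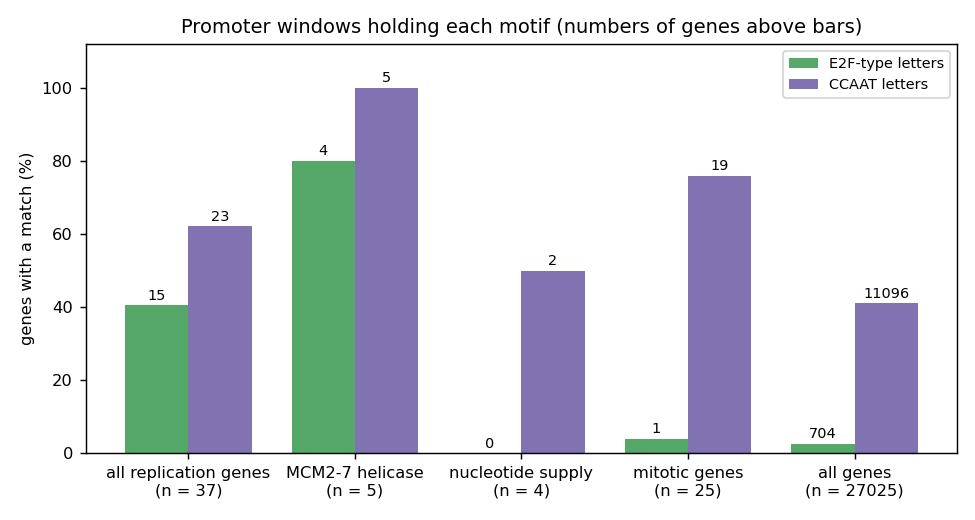
Share of genes with E2F-type letters (green) or CCAAT (purple) in a promoter window of 300 bases, on either strand, with the number of genes above each bar. E2F-type letters were found in 40.5% of the replication genes and 2.60% of all genes, and in 0 of the 4 nucleotide supply genes.

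The libraries held 3765056 and 3127224 assigned reads with circEsyt2 siRNA, and 2516428 and 4116791 with scramble siRNA, as solved from the digits of the FPKM values. Contractile markers were present in all 4 libraries and 6 of the 8 tested were lower, with summed FPKM of 1168 and 1145 over the 10 smooth muscle genes with circEsyt2 siRNA, against 1780 and 1793 with scramble siRNA. Des and Myocd, for desmin and myocardin, lay between 0.189 and 1.05 FPKM in every library. Of 14 hepatocyte markers, 14 reached 1 FPKM in circEsyt2 siRNA replicate 1 and 13 in replicate 2, against 2 in each scramble library. Limma called none of the 14, and all 14 had fold changes above 0. Their summed FPKM was 3359.6 and 107 with circEsyt2 siRNA, against 14.1 and 5.54 with scramble siRNA, where 4 and 5 of the 14 were at 0. Of 8 tested fibroblast genes 2 were lower, Thy1 with 14.1 and 12.9 FPKM against 62.8 and 58.4 FPKM with scramble siRNA, and Pdgfra with 7.0 and 7.56 FPKM against 20.5 and 19.4 FPKM. The endothelial gene Kdr was higher, at 4.32 and 4.00 FPKM with circEsyt2 siRNA against 1.23 and 1.26 FPKM with scramble siRNA. It was 1 of 2 tested among 8 endothelial genes, and the other, Cdh5, was not called. The remaining 6 were below the filter of the test, with Cldn5 at 0 in every library. Leukocyte markers summed to 29.8 and 3.75 FPKM with circEsyt2 siRNA, against 4.43 and 6.80 FPKM with scramble siRNA, most of the first being Lyz2 at 21.4 FPKM. Across the genes tested, which are not independent replicates, log2 values correlated with a Pearson r of 0.931 between the circEsyt2 siRNA libraries and 0.972 between the scramble libraries. The part of the hepatocyte signal in the results below was not tested, so values without circEsyt2 siRNA replicate 1 are given for the replication and pathway genes that passed. In such a fit 1 circEsyt2 siRNA library stands against 2 scramble libraries, the spread is estimated from the scramble libraries and across genes, and the lone library is assumed to vary like them.

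**Figure D2:**
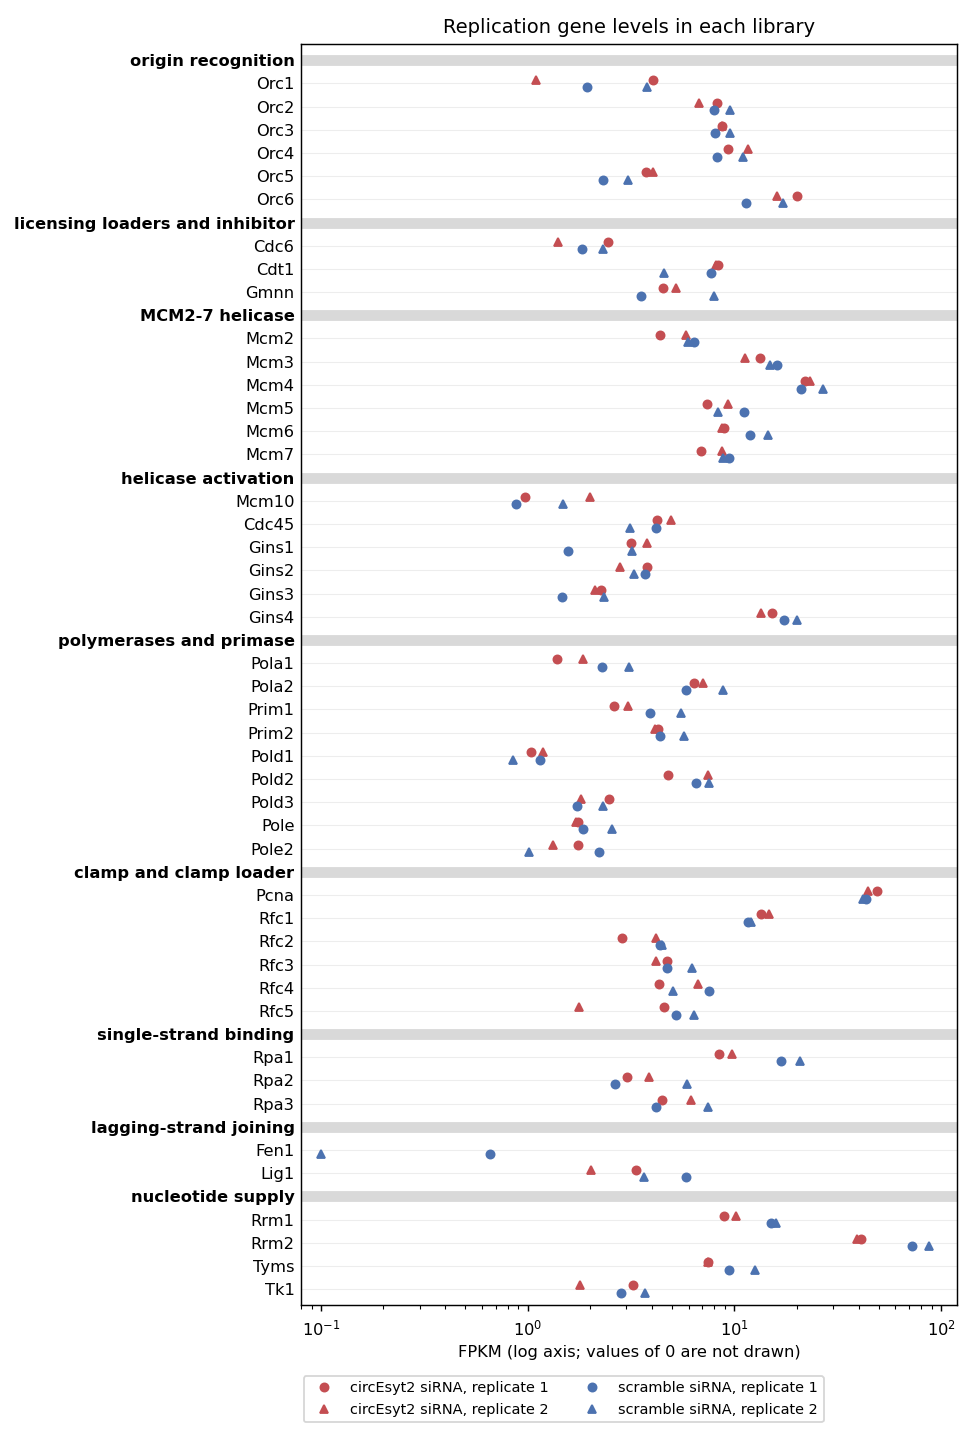
FPKM of each of the 45 replication genes in the 4 libraries on a log axis, grouped by role, with circEsyt2 siRNA in red, scramble siRNA in blue, replicate 1 as circles, replicate 2 as triangles and values of 0 not drawn. Rrm2 and Pcna lie highest, and the red points of Rrm2, Rrm1 and Rpa1 lie apart from and below the blue ones.

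Rrm2 and Pcna had the highest levels, in an order that differed between treatments. Pcna lay above Rrm2 in both circEsyt2 siRNA libraries and below it in both scramble libraries. Averaged over the 4 libraries, Rrm2 had 60.0 FPKM and Pcna 44.7 FPKM, followed by Mcm4 at 23.3, Gins4 at 16.6 and Orc6 at 16.2 FPKM. FPKM divides by all annotated exon bases of a gene, such as 11012 for Rrm1 and 1349 for Gins4. The RNA made may be shorter than that, so levels of different genes compare only roughly. Orc6 lay above Gins4 in both circEsyt2 siRNA libraries and below it in both scramble libraries, and this order was not tested. At the low end Mcm10, the initiation factor that helps to activate the helicase, averaged 1.33 FPKM, and Pold1, the catalytic subunit of polymerase delta, 1.05 FPKM. Summed over the 45 genes, the level was 347 and 345 FPKM with circEsyt2 siRNA, against 394 and 453 FPKM with scramble siRNA. Without Rpa1, Rrm1 and Rrm2, chosen for this sum after their values were seen, it was 289 and 286 FPKM, against 290 and 329 FPKM.

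Origin recognition genes mark where replication can begin, and none of the 6 passed. Orc5, a subunit that binds ATP, had 3.75 and 4.05 FPKM with circEsyt2 siRNA, against 2.32 and 3.07 FPKM with scramble siRNA. The groups of Orc5 did not overlap, and its log2 fold change was 0.41 (SE 0.23; limma adjusted p = 0.274). Orc6, the smallest subunit, had 20.1 and 16.1 FPKM with circEsyt2 siRNA, against 11.4 and 17.1 FPKM with scramble siRNA, and the groups overlapped (log2 fold change 0.34, SE 0.22, adjusted p = 0.357). The widest split within the list was in Orc1, the subunit whose amount is known to follow the cell cycle. Its FPKM was 4.05 in circEsyt2 siRNA replicate 1 and 1.1 in replicate 2, against 1.94 and 3.77 with scramble siRNA, and the replicates of each group differed by more than the groups did. Orc2, Orc3 and Orc4 had log2 fold changes of −0.20, −0.01 and 0.11, and overlapped. Overlapping exons of other genes cover 29.8% of the exon bases of Orc2, with Nif3l1 on the opposite strand, and the strand setting of the counting is not given in the sources used here.

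The licensing loaders and their inhibitor did not pass either. Cdt1, which brings the helicase to origins, had 8.37 and 8.15 FPKM with circEsyt2 siRNA, against 7.72 and 4.56 FPKM with scramble siRNA. The groups of Cdt1 did not overlap and the log2 fold change was 0.41 (SE 0.25; limma adjusted p = 0.313). Gmnn, which encodes geminin, the protein that holds Cdt1 back after S phase has begun, had 4.53 and 5.24 FPKM with circEsyt2 siRNA, against 3.53 and 7.96 FPKM with scramble siRNA. Its circEsyt2 siRNA values lay between those of the scramble libraries (log2 fold change −0.12, SE 0.34, adjusted p = 0.845). The FPKM of Cdt1 was 1.85 and 1.56 times that of Gmnn with circEsyt2 siRNA, against 2.19 and 0.573 times with scramble siRNA. That ratio depended on the scramble library taken and did not separate the groups (exact two-sided permutation p = 1, where 0.333 is the smallest this design allows). Cdc6, the ATPase that loads the helicase with Cdt1, had 2.44 and 1.41 FPKM with circEsyt2 siRNA, against 1.82 and 2.32 FPKM with scramble siRNA.

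All 6 genes of the MCM2-7 helicase had fold changes below 0, as had 49.8% of all genes tested, and none passed. Their log2 fold changes lay between −0.53 and −0.07 with a median of −0.23. Mcm6 had 8.88 and 8.70 FPKM with circEsyt2 siRNA, against 11.9 and 14.5 FPKM with scramble siRNA. Both circEsyt2 siRNA libraries were below both scramble libraries, and the log2 fold change was −0.53 (SE 0.16; limma adjusted p = 0.0841). Mcm3 had 13.3 and 11.2 FPKM with circEsyt2 siRNA, against 16.1 and 14.9 FPKM with scramble siRNA (log2 fold change −0.32, SE 0.15, adjusted p = 0.222). Mcm2 and Mcm7 also did not overlap between groups, while Mcm4 and Mcm5 did. So 4 of the 6 (66.7%) were lower without overlap, against 31.1% of all genes tested. The 95% interval of each of the 6 lay within 1 of 0 on the log2(FPKM + 1) scale, which held for 58.7% of all genes tested.

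The 6 subunits form a ring with 1 copy of each, and their shares of the summed FPKM were not equal. FPKM divides by all annotated exon bases, 6956 for Mcm2 and 3589 for Mcm4, so these are not shares of transcripts. Mcm4 made up 35.1% and 34.6% of the summed MCM2-7 FPKM with circEsyt2 siRNA, against 27.6% and 33.9% with scramble siRNA. Mcm6 made up 14.1% and 13.0% with circEsyt2 siRNA, against 15.7% and 18.2% with scramble siRNA. For these 2 subunits the groups did not overlap (exact two-sided permutation p = 0.333 for each, the smallest that 2 libraries against 2 allow). For Mcm2, Mcm3, Mcm5 and Mcm7 the groups overlapped, with exact permutation p between 0.667 and 1. Over the 8 ratios compared, the Benjamini-Hochberg adjusted p was 0.889 for the 3 that did not overlap and 1 for the others. Mcm2 had the smallest share, at 6.92% to 8.72% across the 4 libraries, and also the most exon bases of the 6. Its reads in circEsyt2 siRNA replicate 1, 114, were close to the 111 of Mcm5 and the 115 of Mcm7.

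Genes that activate the loaded helicase showed no common direction, with 4 fold changes above 0 and 2 below, and none passed. Gins1 had 3.15 and 3.80 FPKM with circEsyt2 siRNA, against 1.57 and 3.20 FPKM with scramble siRNA (log2 fold change 0.44, SE 0.31, limma adjusted p = 0.382). It rests on 18 and 18 reads with circEsyt2 siRNA, against 6 and 20 reads with scramble siRNA. Gins4, another subunit of the same 4-part complex, had 15.2 and 13.5 FPKM with circEsyt2 siRNA, against 17.4 and 20.2 FPKM with scramble siRNA. Its groups did not overlap (log2 fold change −0.37, SE 0.15, adjusted p = 0.167). Cdc45, which joins GINS and MCM2-7 in the active helicase, had 4.24 and 4.93 FPKM with circEsyt2 siRNA, against 4.19 and 3.12 FPKM with scramble siRNA. Its groups did not overlap either, with a log2 fold change of 0.27 and an adjusted p of 0.447 in limma. For Gins2, 67.3% of the exon bases overlap Gse1 on the opposite strand, so its level of 2.81 to 3.76 FPKM is uncertain.

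Polymerase and primase genes were low and did not pass, at 0.85 to 8.80 FPKM in single libraries. Prim1, the catalytic primase subunit that makes RNA primers, had 2.61 and 3.06 FPKM with circEsyt2 siRNA, against 3.90 and 5.53 FPKM with scramble siRNA. Pola1, the catalytic subunit of the polymerase alpha that extends those primers, had 1.39 and 1.85 FPKM with circEsyt2 siRNA, against 2.30 and 3.09 FPKM with scramble siRNA. The groups of both genes did not overlap, with log2 fold changes of −0.56 (SE 0.24; limma adjusted p = 0.174) and −0.49 (SE 0.28; adjusted p = 0.290). The other 7 genes, for the accessory subunits of these enzymes and for the leading and lagging strand polymerases epsilon and delta, had log2 fold changes between −0.21 and 0.08. Of these 7, Prim2 and Pole were the ones without overlap, both lower with circEsyt2 siRNA. So 4 of the 9 (44.4%) were lower without overlap, against 31.1% of all genes tested.

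The clamp and its loader did not pass. Pcna, the clamp that holds polymerases on DNA, had 49.2 and 44.1 FPKM with circEsyt2 siRNA, against 43.4 and 42.0 FPKM with scramble siRNA. Its log2 fold change was 0.12 with a 95% interval of −0.17 to 0.41 (limma adjusted p = 0.521), the narrowest interval of the 44 tested. The annotation holds pseudogenes named for Pcna and for Tyms, with which reads can be shared. Rfc5, a small loader subunit, had 4.55 and 1.78 FPKM with circEsyt2 siRNA, against 5.19 and 6.40 FPKM with scramble siRNA. Its 2 circEsyt2 siRNA libraries differed by about 1 on the log2 scale, and its log2 fold change was −0.78 (SE 0.35; adjusted p = 0.20). Without circEsyt2 siRNA replicate 1 the fold change of Rfc5 was −1.28 (adjusted p = 0.0449). That fit keeps only the library with the low Rfc5 value on the circEsyt2 siRNA side. Rfc2, also a small subunit, had 2.87 and 4.16 FPKM with circEsyt2 siRNA, against 4.35 and 4.47 FPKM with scramble siRNA (log2 fold change −0.28, SE 0.23, adjusted p = 0.454). Rfc1, the large subunit, lay higher in both circEsyt2 siRNA libraries, at 13.5 and 14.7 FPKM against 11.6 and 12.0 FPKM with scramble siRNA, with a log2 fold change of 0.24 (adjusted p = 0.311).

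RPA coats the single strands that the helicase opens, and 1 of its 3 genes fell. Rpa1 had 8.43 and 9.75 FPKM with circEsyt2 siRNA, against 16.9 and 20.8 FPKM with scramble siRNA. On GRCm38 the gene spans chr11:75298166-75348324 (minus strand). Its values rest on 177 and 170 reads with circEsyt2 siRNA, against 237 and 477 reads with scramble siRNA. The groups stood well apart. The mean was 9.09 ± 0.932 FPKM with circEsyt2 siRNA and 18.8 ± 2.75 FPKM with scramble siRNA (SD, n = 2 each), and Rpa1 fell by 0.97 on the log2 scale (SE 0.17; limma adjusted p = 0.0208). Rpa2, the middle subunit, had 3.02 and 3.85 FPKM with circEsyt2 siRNA, against 2.66 and 5.92 FPKM with scramble siRNA (log2 fold change −0.19, SE 0.34, adjusted p = 0.739). Rpa3, the smallest subunit, had 4.44 and 6.19 FPKM with circEsyt2 siRNA, against 4.20 and 7.48 FPKM with scramble siRNA. The circEsyt2 siRNA values of both lay between the scramble values, and the difference between the 3 subunits was not tested.

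Of the genes that finish the lagging strand, Lig1 did not pass and Fen1 was below the 1 FPKM filter of the test. Lig1, the ligase that seals Okazaki fragments, had 3.36 and 2.02 FPKM with circEsyt2 siRNA, against 5.87 and 3.64 FPKM with scramble siRNA. The groups of Lig1 did not overlap, and the log2 fold change was −0.64 (SE 0.30; limma adjusted p = 0.217). Fen1, the nuclease that trims the fragments, was listed at 0 in both circEsyt2 siRNA libraries, and at 0.656 and 0.10 FPKM, or 4 and 1 reads, with scramble siRNA. A count of 0 allows up to 3 reads, which is 0.329 and 0.396 FPKM for Fen1 at the depth of the circEsyt2 siRNA libraries, so no difference was detectable. With no filter on low values limma did not call Fen1 (adjusted p = 0.481). Exons of Tmem258 and Gm10143 on the opposite strand cover 84.2% of the exon bases of Fen1, and reads there may not have been counted for it.

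**Figure D3:**
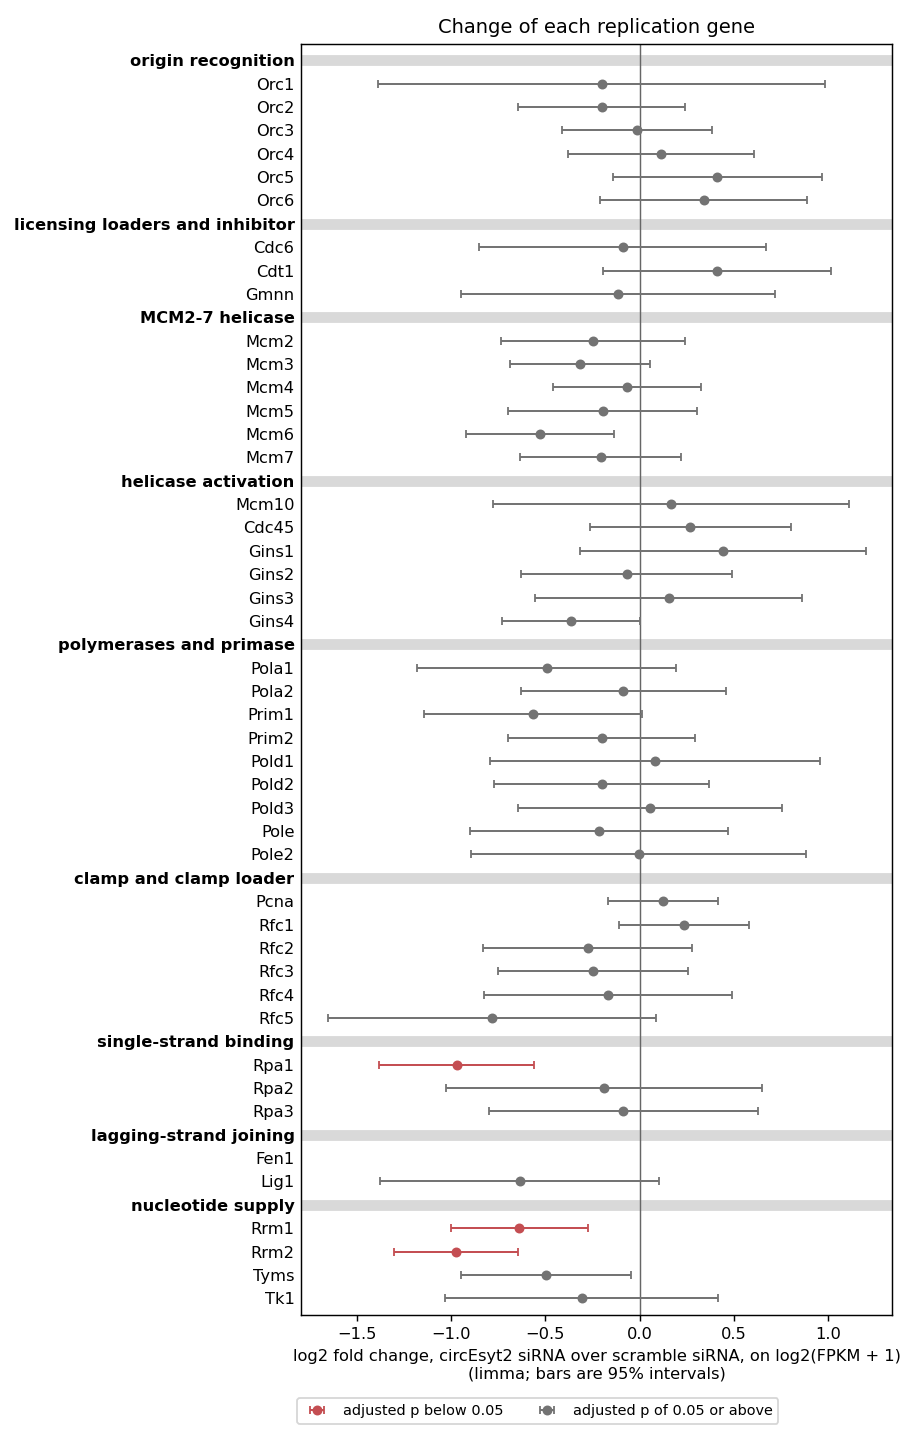
Log2 fold change of each tested replication gene, circEsyt2 siRNA over scramble siRNA, from limma on log2(FPKM + 1), with 95% intervals as bars and genes grouped by role. Rpa1, Rrm1 and Rrm2 (red) passed the adjusted threshold, the other 41 (grey) did not, and Fen1 was not tested.

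Of the role groups with more than 2 genes, nucleotide supply had the lowest ratio of mean summed FPKM, 0.543, and both subunits of ribonucleotide reductase fell. Rrm2, the regulatory subunit made in S phase, had 41.1 and 39.0 FPKM with circEsyt2 siRNA, against 72.3 and 87.7 FPKM with scramble siRNA. It rests on 429 and 338 reads with circEsyt2 siRNA, against 504 and 1000 reads with scramble siRNA. The groups did not overlap. The mean was 40.1 ± 1.5 FPKM with circEsyt2 siRNA and 80.0 ± 10.9 FPKM with scramble siRNA (SD, n = 2 each), and Rrm2 fell by 0.97 on the log2 scale (SE 0.13; limma adjusted p = 0.0110). On GRCm38 the gene spans chr12:24708241-24714146 (plus strand).

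Rrm1, the large catalytic subunit, had 8.95 and 10.2 FPKM with circEsyt2 siRNA, against 15.0 and 15.8 FPKM with scramble siRNA. Its groups did not overlap, and it fell by 0.64 on the log2 scale (SE 0.15; limma adjusted p = 0.0439). Its span is chr7:102441695-102469771 (plus strand). Neither reductase gene shares exon bases with another annotated gene, and for Rpa1 0.789% are shared. The FPKM of Rrm2 was 4.6 and 3.82 times that of Rrm1 with circEsyt2 siRNA, against 4.80 and 5.53 times with scramble siRNA. FPKM divides by all annotated exon bases, 2771 for Rrm2 and 11012 for Rrm1, so this does not count transcripts. The FPKM ratio was lower in both circEsyt2 siRNA libraries, which is as far as 2 libraries against 2 can go (exact two-sided permutation p = 0.333).

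The thymidylate genes had fold changes below 0 and did not pass. Tyms, thymidylate synthase, had 7.46 FPKM in both circEsyt2 siRNA libraries, against 9.46 and 12.6 FPKM with scramble siRNA. The groups of Tyms did not overlap, and its log2 fold change was −0.50 (SE 0.18; limma adjusted p = 0.134). Tk1, thymidine kinase of the salvage route, had 3.22 and 1.78 FPKM with circEsyt2 siRNA, against 2.83 and 3.69 FPKM with scramble siRNA, and overlapped. Summed over the 4 genes, the level was 60.7 and 58.5 FPKM with circEsyt2 siRNA, against 99.6 and 119.8 FPKM with scramble siRNA. Rrm2 made up most of each sum. The clamp and its loader summed to 79.2 and 75.6 FPKM with circEsyt2 siRNA, against 76.8 and 76.2 FPKM with scramble siRNA, most of it Pcna. The 6 clamp and loader genes had a median log2 fold change of −0.21, with 4 below 0 and 2 above. Without overlap, 3 of them (50%) were lower and 2 (33.3%) higher, against 31.1% and 29.7% of all genes tested.

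**Figure D4:**
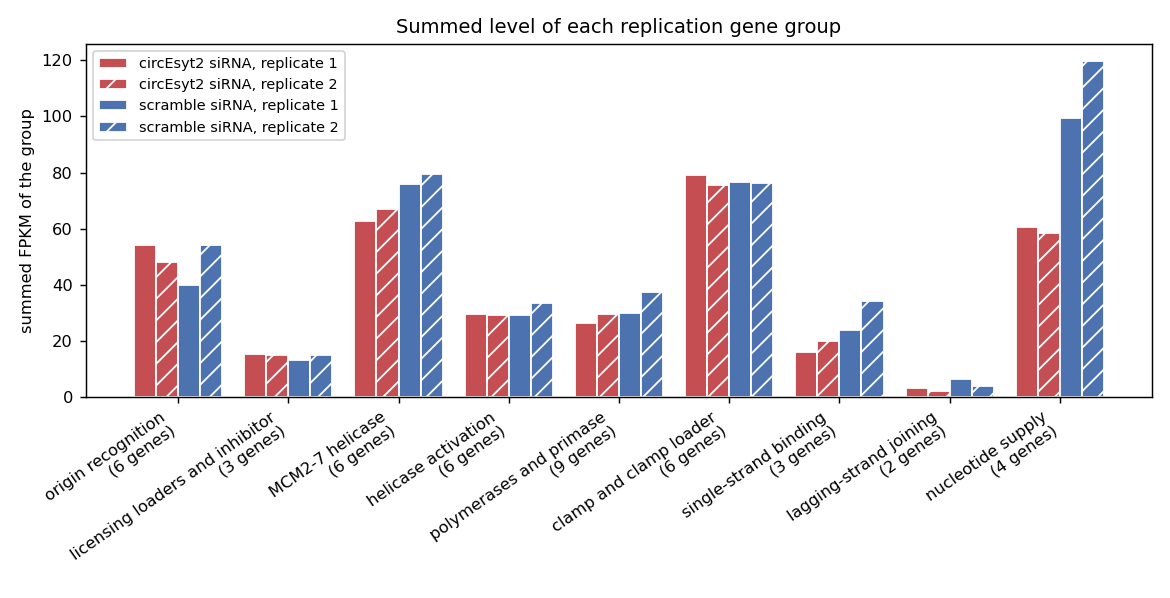
Summed FPKM of each role group in the 4 libraries, circEsyt2 siRNA in red and scramble siRNA in blue, with replicate 2 hatched. The nucleotide supply bars stand at 60.7 and 58.5 FPKM with circEsyt2 siRNA against 99.6 and 119.8 FPKM with scramble siRNA, while those of the clamp and its loader lie between 75.6 and 79.2 FPKM in all 4 libraries. Rrm2 makes up most of the former and Pcna most of the latter.

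The 3 calls depend on the libraries used. Without circEsyt2 siRNA replicate 1, the library with the high hepatocyte markers, the log2 fold change of Rrm2 was −1.01 (limma adjusted p = 0.0285), with 1 library on the circEsyt2 siRNA side. In that fit the log2 fold changes of Rpa1 and Rrm1 were −0.88 and −0.55 and missed the threshold (adjusted p = 0.0575 and adjusted p = 0.111). Without circEsyt2 siRNA replicate 2 none of the 3 passed, with log2 fold changes of −0.94 for Rrm2, −1.07 for Rpa1 and −0.72 for Rrm1. When either scramble library was left out limma called 0 genes of all tested, with 1959 (replicate 1 out) and 2231 (replicate 2 out) at an unadjusted p under 0.05. The call of Rrm1 was also lost with the replicate number as a block (adjusted p = 0.0739) and with no filter on low values (adjusted p = 0.0714). All 3 calls were lost with eBayes without a trend, where the adjusted p was 0.0539 for Rrm2, 0.0600 for Rpa1 and 0.0882 for Rrm1.

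The 45 genes also varied between libraries of the same treatment. Of the 44 tested, 32 were lower in scramble replicate 1 than in scramble replicate 2, with a median difference of −0.27 on the log2 scale, while over all genes tested that median was −0.00. The median log2 fold change of the 44 genes, circEsyt2 siRNA over scramble siRNA, was −0.19, against 0.00 for all genes tested, and was thus smaller than the difference between the scramble libraries. It was −0.28 when scramble replicate 1 was left out, −0.068 when scramble replicate 2 was, and −0.069 when circEsyt2 siRNA replicate 1 was. In 17 of the 44 genes (38.6%) both circEsyt2 siRNA libraries were below both scramble libraries, which held for 31.1% of all genes tested. In 5 of the 44 (11.4%) both were above, against 29.7% of all genes tested. The 95% interval lay within 1 of 0 for 32 of the 44 genes (72.7%), against 58.7% of all genes tested. This is on the log2(FPKM + 1) scale, where a given fold change in FPKM is a smaller difference for a low gene, so it sets no bound on the fold in FPKM.

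Other genes of the pathway were called in few cases. Of 47 tested genes from the lists of further replication factors and of further deoxynucleotide enzymes, 3 were lower (6.38%) and 0 higher, where all genes tested had 7.26% lower and 5.47% higher. Topbp1, a scaffold needed to fire origins, had 4.26 and 4.24 FPKM with circEsyt2 siRNA, against 8.78 and 8.66 FPKM with scramble siRNA, and fell by 0.89 on the log2 scale (limma adjusted p = 0.0233). Top2a, the topoisomerase that untangles copied DNA, fell by 0.62 (adjusted p = 0.0423). Samhd1, which encodes a hydrolase that destroys deoxynucleotides, had 7.11 and 5.63 FPKM with circEsyt2 siRNA, against 14.0 and 15.1 FPKM with scramble siRNA. Samhd1 fell by 1.09 (adjusted p = 0.0159), so transcripts of an enzyme that removes deoxynucleotides and of the reductase that makes them were both lower. Without circEsyt2 siRNA replicate 1 Samhd1 kept its call (limma adjusted p = 0.0240) and Topbp1 and Top2a did not (adjusted p = 0.0578 and adjusted p = 0.104). Over all other fits the call was lost in 3 of 13 for Samhd1, 5 of 13 for Topbp1 and 7 of 13 for Top2a. Of 9 replication checkpoint genes 0 passed, with a median log2 fold change of 0.26.

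Upstream of replication, the list of E2F, RB and G1/S regulators had 6 of 30 tested genes lower (20%) and 2 higher (6.67%), beside 7.26% lower and 5.47% higher over all genes tested. Ccnd1, the gene of cyclin D1, which starts the release of E2F from RB, had 23.6 and 23.2 FPKM with circEsyt2 siRNA, against 84.6 and 76.4 FPKM with scramble siRNA. Ccnd1 fell by 1.74 on the log2 scale (limma adjusted p = 0.00281). Ccnd2, for cyclin D2, had 67.2 and 77.2 FPKM with circEsyt2 siRNA, against 153 and 143 FPKM with scramble siRNA, and fell by 1.03 (adjusted p = 0.00672). E2f5, for a repressive E2F, fell by 1.04 (adjusted p = 0.0138). Myc, for a growth transcription factor, had 40.2 and 47.2 FPKM with circEsyt2 siRNA, against 20.8 and 22.7 FPKM with scramble siRNA, and rose by 0.97 (adjusted p = 0.0119). The other gene that rose was Cdk6, a partner of the D cyclins, named after its values were seen, by 0.63 (adjusted p = 0.0382). Without circEsyt2 siRNA replicate 1 the calls of Ccnd1, Ccnd2, E2f5 and Myc held, with limma adjusted p of 0.00963 to 0.0329, and that of Cdk6 did not (adjusted p = 0.0819). Over the 13 other fits the call was lost in 2 each for Ccnd1 and Ccnd2, 3 for E2f5, 4 for Myc and 7 for Cdk6.

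Genes that copy chromatin with the DNA, and genes of mitosis, were lower in part. In the chromatin assembly list 3 of 13 were lower (23.1%) and 0 higher, against 7.26% and 5.47% of all genes tested. They were Dnmt1, which copies DNA methylation and fell by 0.95 on the log2 scale, its recruiter Uhrf1, which fell by 0.94, and the histone acetyltransferase gene Hat1, which fell by 1.41 (limma adjusted p = 0.0281, 0.0430 and 0.0488). Of 30 mitotic genes 6 were lower (20%) and 0 higher, against the same shares of all genes, with a median log2 fold change of −0.37. Aurkb, a mitotic kinase, had 3.07 and 2.39 FPKM with circEsyt2 siRNA, against 7.42 and 7.75 FPKM with scramble siRNA (limma adjusted p = 0.0173). Mki67, the proliferation marker, had 6.89 and 6.55 FPKM with circEsyt2 siRNA, against 15.2 and 12.9 FPKM with scramble siRNA (adjusted p = 0.0185). Cdc20 and Kif20a, for an activator of chromosome separation and a kinesin of cell division, fell by 0.86 and 1.17. Without circEsyt2 siRNA replicate 1, limma kept the calls of Hat1, Aurkb, Mki67 and Cdc20 (adjusted p between 0.0118 and 0.0457) and lost those of Dnmt1 (0.0689), Uhrf1 (0.0990) and Kif20a (0.0560). Over the 13 other fits the call was lost in 6 for Dnmt1, 5 each for Hat1 and Kif20a, 4 each for Cdc20 and Mki67 and 3 for Aurkb, and Uhrf1 lost it in 8 of 12. In the list of translesion and repair polymerases 1 of 10 tested was lower, the end-joining polymerase gene Polm, whose call was lost in 10 of 12 other fits, among them the fit without circEsyt2 siRNA replicate 1 (adjusted p = 0.113). Whether these lists differ from the 44 replication genes in their share of calls was not tested.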

How the data were processed

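RNA sequencing of 4 libraries was used, 2 with circEsyt2 siRNA and 2 with scramble siRNA, grouped by the sample titles. The deposited values are FPKM, 1 file per library, made by the authors with paired reads of 150 bp. Trimmomatic, HISAT2 and featureCounts are the tools, and GRCm38 and mm10 the builds, that the submitters' processing notes list. Versions, settings, strand and annotation were not given in the sources used here. FPKM divides by library total, so abundant genes can shift others.

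Library totals and whole read numbers were solved from the FPKM digits with GENCODE M21 exon lengths (tolerance 1e-06). The M21 length gave whole numbers for 96.6% of the genes above 0, and for the others, Pola2 among them, the smallest length that did was used. Among genes with 1 to 20 such reads 62.1% to 75.0% of the numbers were even, as when both reads of a pair are counted, so fragments may be fewer. Limits from counts cover counting error only.

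The test was limma 3.58.1 in R 4.3.3 (eBayes with a trend, two-sided) on log2(FPKM + 1), for genes averaging 1 FPKM or more, with Benjamini-Hochberg adjustment over all 11290. Fold changes on this scale understate those of low genes. Steps were tested on simulated data with the same dispersion for every gene and no hepatocyte signal. That shows the steps run and does not cover the spread of these libraries. Alternatives changed the pseudocount, filter, scaling, trend, block, libraries and use of voom. The genes and lists were chosen with earlier results of these data known. Genes described in full are those that passed and the 2 with the largest fold change per role, and in other lists up to 4 that passed, by smallest p. No pairing of replicate numbers is stated in the labels.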

Additional observations from a re-analysis of the deposited data

How the results depend on the processing

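Limits are the 2 libraries per treatment, their depth, since genes near 1 FPKM rest on few reads, and the hepatocyte signal in circEsyt2 siRNA replicate 1. A fit without 1 library leaves 1 library in its group, assumed to vary like the others. Over 13 other fits, 0 replication genes were called higher in any. The number lower was 3 as reported, 0 with eBayes without a trend, and 0 to 2 when 1 library was left out. With eBayes without a trend 203 of all genes were higher and 374 lower, and with the replicate block 404 were higher. Leaving out 1 library gave 0 to 405 higher and 0 to 622 lower. In limma the replicate block kept the calls of Rrm2 and Rpa1 and lost that of Rrm1 (adjusted p = 0.0739). Same-numbered libraries did not deviate together (r = −0.05 across genes). That r cannot exclude pairs, since the hepatocyte signal enters the difference between the circEsyt2 siRNA libraries. The numbers were not taken as pairs because the labels state no pairing. The median log2 fold change of the replication genes was −0.10 with a pseudocount of 5 and −0.28 to −0.068 when 1 library was left out.

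Further replication and deoxynucleotide genes called lower numbered 1 with no filter on low values, 5 with voom and 0 to 1 without 1 library. Regulators of E2F and G1/S called lower numbered 3 with eBayes without a trend and 0 to 5 without 1 library. Those called higher numbered 1 with no filter, 0 with eBayes without a trend, 1 with the replicate block and 0 to 1 without 1 library. Mitotic genes called lower numbered 1 with eBayes without a trend and 0 to 4 without 1 library. Leaving out 1 library gave log2 fold changes of −0.61 to 0.38 for Gmnn and −0.65 to 0.27 for Rpa2, positive without scramble replicate 2. When 1 library was left out, the log2 ratio of Cdt1 to Gmnn differed between treatments by −0.37 to 1.56 and that of Rrm2 to Rrm1 by −0.43 to −0.17. In percentage points of MCM2-7, the difference ranged from −1.05 to 0.74 for Mcm2, −3.18 to 1.19 for Mcm3, 0.919 to 7.26 for Mcm4, −1.88 to 2.31 for Mcm5, −4.66 to −2.15 for Mcm6 and −0.79 to 1.28 for Mcm7. The causes of these changes were not tested. E2F-type letters were found in 13 genes with TTTCCCGC or TTTGGCGC alone.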
